A study of Homo sapiens with 5 samples.

Results

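S100A8, S100A9 and S100A7 are 3 of the 33538 genes counted in the matrix. They were chosen by name, with the differences between the samples described here already known, so their levels and ratios are a description and carry no test. S100A8 (ENSG00000143546) and S100A9 (ENSG00000163220) encode the subunits of calprotectin, and S100A7 (ENSG00000143556) encodes psoriasin. The cells were MDA-MB-468, a cell line from a human breast carcinoma of the triple-negative kind, and the study raised FOSL1, which encodes the AP-1 transcription factor subunit FRA-1. Samples were stained with 1 hashtag antibody each, pooled and run as 1 droplet library that counts a tag near the 3' end of each transcript. The system labelled HA had 1 control and 1 FOSL1 sample. The system labelled VPR had its own control and, for FOSL1, 1 sample for each guide RNA, gRNA2 and gRNA3. The labels spell out neither HA nor VPR. VPR is the usual name of a transcriptional activator that a nuclease-dead Cas9 carries to a promoter chosen by a guide RNA. All 5 samples are of 1 cell line. The labels describe 5-fluorouracil treatment for the series in general without saying whether these samples received it. Each group held 1 sample, so no difference between samples has a replicate check. Every interval below is a 95% interval that covers counting error only.

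S100 proteins are small calcium-binding proteins. S100A8 and S100A9 pair into calprotectin, which is abundant in neutrophils and monocytes and is induced in stressed or inflamed epithelium. It withholds zinc and manganese from microbes and, once released, signals through the receptors TLR4 and RAGE. Psoriasin was first described in psoriatic skin. It is an antimicrobial protein of squamous epithelium and is also made by some breast tumours, mainly those without oestrogen receptor.

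The 3 genes lie in the S100 cluster of chromosome 1, within 103 kb of each other from the start of S100A9 (153357854) to the end of S100A7 (153460651, RefSeq on GRCh38.p14, the assembly that the submitters' build hg38 names). RefSeq promoter windows of 300 bases matched 3 of 3 genes, with 3 overlapping windows for S100A8. The S100A8 window shown was picked for its TATA box after the search. They are shown because these genes were lower together in the guide RNA samples. The windows are chr1:153357604-153357903 on the plus strand for S100A9, chr1:153391024-153391323 on the minus strand for S100A8 and chr1:153460602-153460901 on the minus strand for S100A7. Capitals mark the TATA box letters TATAA, on either strand.
S100A9: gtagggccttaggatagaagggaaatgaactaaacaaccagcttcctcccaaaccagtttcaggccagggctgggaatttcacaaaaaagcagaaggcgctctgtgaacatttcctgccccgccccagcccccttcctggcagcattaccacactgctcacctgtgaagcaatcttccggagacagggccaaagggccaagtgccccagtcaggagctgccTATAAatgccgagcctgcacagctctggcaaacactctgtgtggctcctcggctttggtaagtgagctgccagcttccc
S100A8: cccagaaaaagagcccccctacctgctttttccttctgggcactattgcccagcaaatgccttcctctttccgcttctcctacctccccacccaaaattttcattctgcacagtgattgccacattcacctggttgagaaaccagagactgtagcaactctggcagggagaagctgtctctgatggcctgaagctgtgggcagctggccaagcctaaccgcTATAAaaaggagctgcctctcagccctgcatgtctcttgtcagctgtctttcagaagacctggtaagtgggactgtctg
S100A7: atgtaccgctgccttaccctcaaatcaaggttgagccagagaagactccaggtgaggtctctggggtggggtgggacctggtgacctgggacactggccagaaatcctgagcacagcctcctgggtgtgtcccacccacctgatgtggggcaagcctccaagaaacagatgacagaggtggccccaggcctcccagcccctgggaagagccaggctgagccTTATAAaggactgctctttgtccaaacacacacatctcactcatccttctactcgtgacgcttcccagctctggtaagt
In each window shown TATAA begins 29 or 28 bases before the start site (position -29 in S100A9 and S100A8, -28 in S100A7). In S100A7 it overlaps its own reverse-strand match, which begins at -29. Of the other S100A8 windows, 1 has it at -126 and 1 has no match. TATAA on either strand was present in 20.5% of 34796 promoter windows of this length. The AP-1 letters TGANTCA, searched on both strands and present in 7.73% of those windows, were in none of the windows of the 3 genes, nor was TGACGTCA (1.84%). The C/EBP letters TTGCNNAA (10.5%) and the STAT letters TTCNNNGAA (7.67%) were searched as well and were also in none of them. A match is no proof of a site, and the absence of these letters concerns these 300 bases only.

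S100A7 has near copies. The promoter window of S100A7A was identical to that of S100A7 at 289 of 300 bases (96.3%). Transcript sequences were not compared, so how well reads of this pair can be told apart is not known here. S100A7A itself was counted at 0.842 CPM in the HA control, 0.499 in HA FOSL1, 2.19 in the VPR control, 0.395 for gRNA2 and 0.468 for gRNA3 (CPM, a gene's UMIs divided by its sample's total and scaled to a common sum). The copy S100A7L2 had 0 UMIs in all 5 samples, where 3 UMIs would be at most 0.0713 CPM. The RefSeq models of S100A8 and S100A7A overlap on opposite strands.

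After filtering there were between 1826 (HA FOSL1) and 4299 (gRNA3) cells a sample, with 42058533 to 85556699 UMIs. Median depth was highest in HA FOSL1, with 20768.5 UMIs per cell against 15401.5 to 18121 in the other samples. FOSL1 stood at 8.96 CPM (8.20 to 9.77) in the HA control against 63.5 CPM (61.1 to 66.0) in HA FOSL1. The VPR control held 8.91 CPM (8.06 to 9.83), gRNA2 100.5 CPM (97.7 to 103) and gRNA3 94.3 CPM (92.2 to 96.4). Of 12 epithelial genes fixed for the labelled line, 10 reached 20 CPM in each sample, while SOX10 was at 0 throughout. ELF5, named after its values were seen, was at 0.316 to 0.684 CPM. The keratins KRT8 (925 against 2047 CPM) and KRT18 (1404 against 3323 CPM) were at least 2-fold higher in HA FOSL1 than in its control. Because calprotectin genes also mark myeloid cells, 14 myeloid genes were examined. FCGR3B, MPO, ELANE and TYROBP were at 0 in all 5 samples, and the summed level of the list was 15.99 to 20.9 CPM, of which CD14 gave 13.6 to 18.6 CPM. Of 12 lymphoid, endothelial and fibroblast genes, 5 to 8 were at 0, and the list summed to between 3.37 and 5.16 CPM.

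S100A9, the larger subunit of calprotectin, was among the most abundant transcripts of the controls. Its level was 1533 CPM (1523 to 1543) in the HA control against 706 CPM (698 to 714) in HA FOSL1. The VPR control held 1985 CPM (1972 to 1998), while gRNA2 had 571 CPM (564 to 578) and gRNA3 had 639 CPM (633 to 644). The intervals of these samples do not overlap, and all 3 FOSL1 samples lay under both controls. Ranked among all genes, S100A9 was number 96 in the HA control and 60 in the VPR control, against 191, 228 and 210 in HA FOSL1, gRNA2 and gRNA3.

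S100A8, the smaller subunit, kept the same order of samples. It stood at 241 CPM (237 to 245) in the HA control against 102 CPM (99.1 to 105) in HA FOSL1. The VPR control held 342 CPM (336 to 347), gRNA2 57.3 CPM (55.1 to 59.4) and gRNA3 66.2 CPM (64.5 to 68.0). Against S100A9, S100A8 was scarcer still with the guides. There were 10.0 S100A8 UMIs per 100 of S100A9 with gRNA2 (9.64 to 10.4) and 10.4 with gRNA3 (10.1 to 10.7), against 17.2 in the VPR control (16.9 to 17.5). In the HA system this ratio was 14.5 in HA FOSL1 (14.01 to 14.9) and 15.7 in the control (15.4 to 16.001), a much smaller gap.

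S100A7 kept the order of samples but not the spacing. Psoriasin RNA was at 110.1 CPM (107 to 113) in the HA control against 91.4 CPM (88.6 to 94.4) in HA FOSL1. The VPR control held far more, 315 CPM (309 to 319.8), while gRNA2 was at 65.7 CPM (63.4 to 68.0) and gRNA3 at 77.8 CPM (76.0 to 79.7). The lowest samples were thus again the guide samples, but the HA control lay close to them and the VPR control stood apart. Summed, the 3 genes made up 1884 CPM in the HA control, 899.6 in HA FOSL1, 2641 in the VPR control, 694 for gRNA2 and 783 for gRNA3.

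**Figure D1:**
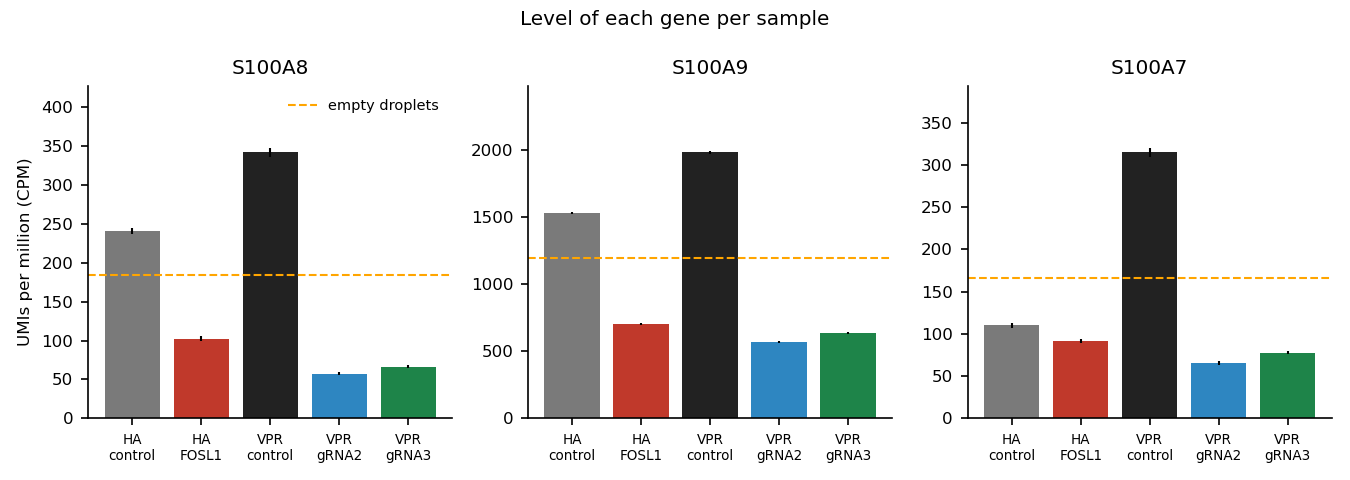
Level of S100A8, S100A9 and S100A7 in each of the 5 samples, in CPM (vertical axes, each starting at 0), with exact 95% Poisson intervals of counting error as bars. The dashed line is the level in empty droplets (185, 1201 and 167 CPM), and all 3 FOSL1 samples lie under both controls in each panel.

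Against its own control, HA FOSL1 was lower by log2 -1.23 (-1.28 to -1.18) for S100A8, -1.12 (-1.14 to -1.10) for S100A9 and -0.27 (-0.32 to -0.21) for S100A7, on the scale of CPM + 1. With gRNA2 these values were -2.56 (-2.62 to -2.50) for S100A8, -1.80 (-1.82 to -1.78) for S100A9 and -2.24 (-2.30 to -2.19) for S100A7. With gRNA3 they were -2.35 (-2.39 to -2.31), -1.63 (-1.65 to -1.62) and -2.001 (-2.04 to -1.96). As linear ratios of CPM + 1, the control was 2.35-fold, 2.17-fold and 1.20-fold above HA FOSL1 for S100A8, S100A9 and S100A7, and 5.89-fold, 3.47-fold and 4.73-fold above gRNA2. At 2-fold or more, 2 of the 3 genes were lower in the HA arm, where 0.8% of the 5748 genes averaging 20 CPM or more were that much lower. All 3 were lower with gRNA2 (0.191% of 5752 genes) and with gRNA3 (0.192% of 5743). Since the genes were chosen with these comparisons in view, their counts are a description. For S100A7 in the HA arm, 754 of the 5748 genes had a lower ratio. The HA samples differed in depth, and each gene was lower in deep than in shallow cells. When each sample was split into 3 groups by depth, the shallowest HA FOSL1 cells (median 15359 UMIs) matched the middle group of the HA control (15404). Between these, S100A7 was higher in HA FOSL1, 160.2 against 129.9 CPM, while S100A8 (181 against 275 CPM) and S100A9 (1051 against 1679 CPM) were lower by less than in the whole samples. The middle HA FOSL1 group (20774) and the deepest control group (22132.5) had 70.9 against 81.7 CPM of S100A7, 100.1 against 192 of S100A8 and 731 against 1364 of S100A9. The direction for S100A7 in the HA arm thus depended on the depth compared. The median mitochondrial share was 11.5% in the HA control and 9.80% in HA FOSL1, and 11.3%, 10.6% and 10.5% in the VPR control, gRNA2 and gRNA3, and its part in these ratios was not tested.

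**Figure D2:**
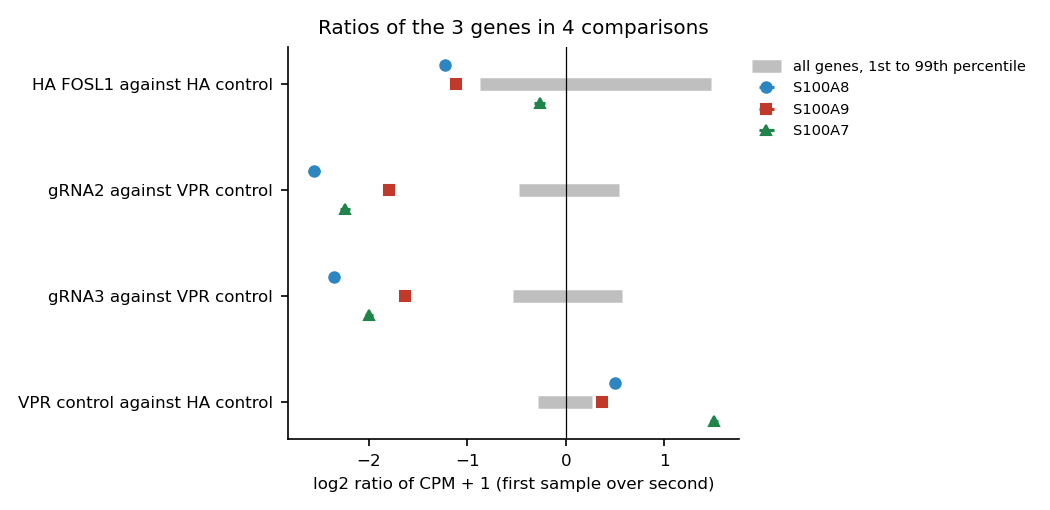
Log2 ratio of CPM + 1 of the first sample over the second (horizontal axis) for the 3 genes in 4 comparisons, with 95% intervals of counting error that are mostly narrower than the symbols. Grey bars span the 1st to 99th percentile of all genes that average 20 CPM or more. S100A7 lies at -0.27 for HA FOSL1, -2.24 for gRNA2, -2.001 for gRNA3 and 1.51 for the controls.

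The controls also differed in all 3 genes. The VPR control was higher than the HA control by 1.51 for S100A7 (1.46 to 1.55), 0.50 for S100A8 (0.47 to 0.54) and 0.37 for S100A9 (0.36 to 0.39). Only S100A7 reached 2-fold, and 0.0175% of 5726 genes were that much higher. For FOSL1 itself the log2 ratio of the controls was -0.01 (-0.18 to 0.17). The choice of control therefore bears on S100A7 most. Set against the HA control, the guides were lower in S100A7 by -0.74 (gRNA2) and -0.50 (gRNA3), and set against the VPR control HA FOSL1 was lower by -1.77. For S100A8 the same exchange gave -2.05, -1.85 and -1.73, and for S100A9 it gave -1.42, -1.26 and -1.49. Each guide comparison shares the VPR control, so the likeness of both guide arms is no independent evidence. Directly compared, gRNA3 was higher than gRNA2 by 0.21 for S100A8, 0.16 for S100A9 and 0.24 for S100A7.

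The 3 genes differ in how they spread over cells. Depth differs between cells, so 5000 UMIs were drawn from each (thinning). S100A9 was nearly ubiquitous, with a UMI in 93.9% (92.99% to 94.6%) of HA control cells and 95.2% (94.3% to 96.0%) of VPR control cells. It remained detectable in 72.9% (70.8% to 74.97%) of HA FOSL1 cells, 77.1% (75.5% to 78.8%) with gRNA2 and 79.2% (78.0% to 80.4%) with gRNA3. Cells with at least 5 S100A9 UMIs made up 53.2% of the HA control and 63.7% of the VPR control, against 24.3%, 19.7% and 20.7% of HA FOSL1, gRNA2 and gRNA3. The median cell of the HA control held 5 S100A9 UMIs, that of the VPR control 7 and that of each FOSL1 sample 2.

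S100A8 was found in fewer cells, 37.2% (35.5% to 38.8%) in the HA control and 49.7% (47.8% to 51.7%) in the VPR control. The share was 18.7% (16.9% to 20.6%) in HA FOSL1, 16.2% (14.7% to 17.7%) with gRNA2 and 16.3% (15.2% to 17.5%) with gRNA3. S100A7 was the sparsest of the 3, with 15.6% (14.4% to 16.9%) in the HA control and 12.05% (10.6% to 13.6%) in HA FOSL1. In the VPR system S100A7 was in 35.2% (33.3% to 37.1%) of control cells, 12.7% (11.4% to 14.01%) with gRNA2 and 13.1% (12.2% to 14.2%) with gRNA3. The intervals of the 3 FOSL1 samples overlap for S100A7. Without thinning, the shares in the order HA control, HA FOSL1, VPR control, gRNA2 and gRNA3 were 59.9%, 38.6%, 69.7%, 33.7% and 36.4% for S100A8. They were 99.1%, 94.0%, 99.5%, 95.8% and 96.7% for S100A9 and 26.8%, 23.9%, 49.3%, 25.2% and 25.7% for S100A7.

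Free RNA can add UMIs to any droplet. Empty droplets held S100A8 at 185 CPM, S100A9 at 1201 CPM and S100A7 at 167 CPM. If 5% of a cell's UMIs were free RNA of that profile, 4.51% of thinned cells would show S100A8, 25.9% S100A9 and 4.08% S100A7. At 10% these values would be 8.82%, 45.1% and 7.99%. All thinned shares of cells with at least 1 UMI given above exceed both sets, but the true share of free RNA was not measured. No such values were computed for the higher limits that follow. An upper limit follows from genes that are low in a sample and present in empty droplets, 14.1% in the HA control and in the VPR control (FOSL1), 31.6% in HA FOSL1 (AKR1C1), 31.02% with gRNA2 and 35.9% with gRNA3 (S100A8 for both guides). The guide limits are, by construction, the point at which free RNA equals all of the S100A8 in those samples. The control limits are likewise the point at which it equals all of their FOSL1. No cell type that should lack these genes is labelled in the pool, so background was not measured that way. The protocol counts 1 stained sample more than the labels describe, and what it would add to the empty droplets is not known here. With 5% free RNA subtracted, S100A8 came to 50.6 CPM with gRNA2 and 350.1 CPM in the VPR control.

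The mean per thinned cell splits into the share of positive cells and the mean in positive cells. For S100A8 with gRNA2 the share accounted for -1.62 and the level in positive cells for -0.90 of a log2 ratio of -2.52, and with gRNA3 for -1.61 and -0.83. For S100A9 the split was the reverse, -0.30 from the share and -1.50 from the level with gRNA2, and -0.26 and -1.38 with gRNA3. S100A7 resembled S100A8, with -1.48 and -0.81 for gRNA2. In the HA arm S100A8 was lower almost wholly in share (-0.99, against -0.16 in positive cells) and S100A9 in both (-0.36 and -0.67). S100A7 there was lower in share (-0.37) and slightly higher in the mean of its positive cells (0.10). The median positive cell held 2 S100A7 UMIs in both HA samples, and the 19 highest cells of HA FOSL1 held 42.4% of its thinned S100A7 UMIs. A share depends on detection, so the split holds for 5000 UMIs a cell only.

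A minority of cells carried most of the S100A7 RNA. The 10% of thinned cells with the most S100A7 held 90.5% of its UMIs in the HA control, 95.8% in HA FOSL1, 68.7% in the VPR control, 92.4% for gRNA2 and 91.6% for gRNA3. For S100A9 that share was 37.9%, 49.96%, 33.0%, 42.5% and 44.6% in the same order, and for S100A8 68.2%, 85.1%, 54.3%, 80.9% and 81.5%. The variance of S100A7 was 10.1 times its mean in the HA control, 13.7 times in HA FOSL1 and 10.3 times in the VPR control. With gRNA2 it was 11.3 times and with gRNA3 11.5 times. For S100A9 these values were 10.7, 11.8, 10.2, 5.90 and 7.45 in the same order, and for S100A8 8.94, 9.89, 5.94, 3.93 and 4.77. By this measure S100A7 was close to S100A9 in the controls and above it with the guides.

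In HA FOSL1, 1 cell alone held 618 S100A7 UMIs, 16.1% of all in the sample, together with 937 S100A9 and 358 S100A8 UMIs at 50391 UMIs in all (2.43 times the sample's median depth). Without the top cell of each sample, S100A7 in HA FOSL1 was at 76.8 CPM and the ratio to the control at -0.49. Without the 1% of cells with the highest level it was at 51.7 CPM against 76.6 CPM in the HA control (-0.56). Without the 10% of cells with the most UMIs it was lower by -0.52. The highest S100A7 cell with gRNA3 was likewise the highest for S100A8 and S100A9, with 398, 235 and 627 UMIs. Doublets of cells from 1 sample cannot be seen by hashtag, and their part in such cells was not tested.

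**Figure D3:**
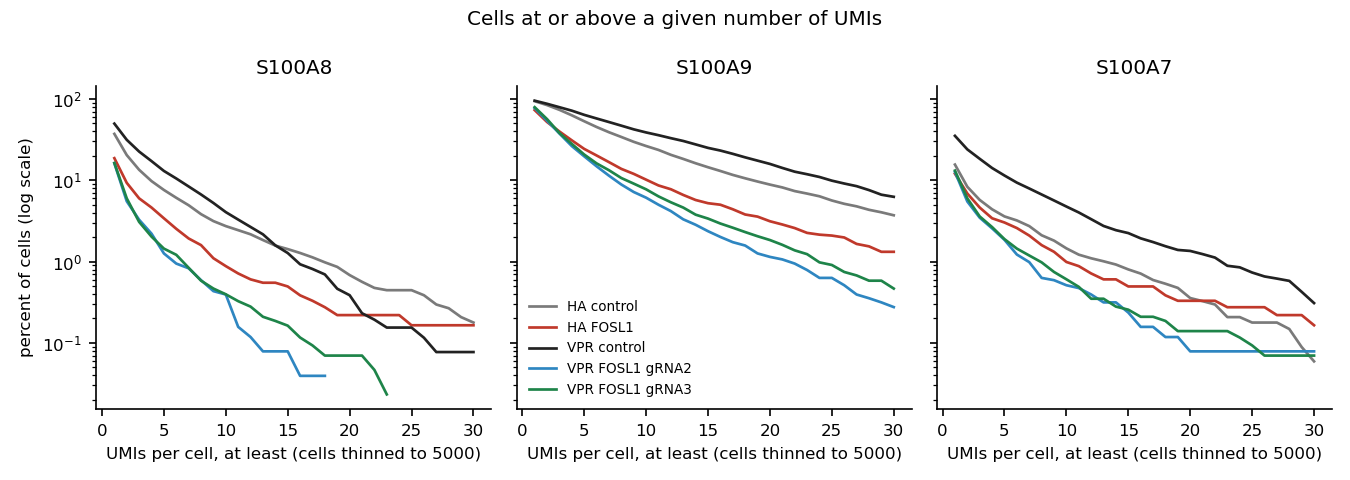
Percent of cells (vertical axis, log scale) with at least a given number of UMIs of each gene (horizontal axis), for cells thinned to 5000 UMIs in the 5 samples. S100A9 starts between 72.9% and 95.2% at 1 UMI in every sample, whereas S100A7 starts at 35.2% in the VPR control and between 12.05% and 15.6% in the other samples.

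The 3 genes were found together in the same cells. Among thinned cells of the HA control, 11.6% held UMIs of all 3 genes, where independent genes would give 5.44%. The shares were 7.04% against 1.64% in HA FOSL1 and 28.9% against 16.6% in the VPR control. With gRNA2 they were 5.32% against 1.58%, and with gRNA3 5.69% against 1.70%. Cells with no UMI of any of the 3 made up 5.41% of the HA control, 4.37% of the VPR control, 25.4% of HA FOSL1, 21.0% with gRNA2 and 19.1% with gRNA3. The part of free RNA in these joint shares was not tested.

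By pairs, S100A8 and S100A7 occurred together at 2.003 times the independent share in the HA control, 3.15 times in HA FOSL1, 1.65 times in the VPR control, 2.66 times with gRNA2 and 2.66 times with gRNA3. This ratio is bounded by how common the genes are, and for the pairs with S100A9, present in most cells, it lay between 1.04 and 1.296. Of S100A7-positive cells, 74.5% also had S100A8 in the HA control and 82.1% in the VPR control, against 30.3% and 32.1% of S100A7-negative cells. In HA FOSL1 these shares were 58.9% and 13.2%, with gRNA2 43.0% and 12.3%, and with gRNA3 43.4% and 12.2%. S100A7-positive cells without S100A9 were rare, at most 0.828% of a sample's cells.

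As a description across cells of 1 library, the Spearman correlation of S100A8 with S100A9 was 0.58 in the HA control (3367 cells), 0.49 in HA FOSL1 (1818), 0.71 in the VPR control (2587), 0.37 for gRNA2 (2537) and 0.38 for gRNA3 (4289). For S100A9 with S100A7 it was 0.43, 0.40, 0.65, 0.34 and 0.40. By this measure the VPR control was highest for both pairs, although its ratio of joint to independent shares was the lowest. The samples also differ in level, and the part of sparser counts in these values was not tested.

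Cells were next grouped by their own S100A9 count. At 11 to 20 S100A9 UMIs, S100A8 was found in 72.5% (68.4% to 76.3%) of HA control cells and 75.2% (65.9% to 83.1%) of HA FOSL1 cells. In the VPR system it was found in 79.5% (75.9% to 82.7%) of control cells, 76.0% (66.4% to 84.0%) with gRNA2 and 66.5% (59.6% to 73.0%) with gRNA3. In this group of cells only gRNA3 lay apart from its control, without overlap of the intervals. Cells with over 20 S100A9 UMIs were 14.2% of the VPR control but 1.06% with gRNA2 (27 cells) and 1.61% with gRNA3. In the HA system they were 8.17% of the control and 2.86% of HA FOSL1. At 3 to 5 S100A9 UMIs the guides were under their control, with S100A8 in 17.4% (14.4% to 20.7%) and 18.1% (15.7% to 20.7%) against 26.2% (22.6% to 30.0%). At 6 to 10 UMIs they were under it too, with 37.2% (31.2% to 43.5%) for gRNA2 and 36.2% (31.6% to 40.99%) for gRNA3 against 47.8% (43.6% to 51.997%). At 1 to 2 UMIs HA FOSL1 cells had S100A8 in 6.14% (4.36% to 8.36%) against 13.5% (11.1% to 16.3%) in the HA control. At 3 to 5 and 6 to 10 UMIs the intervals of the HA samples overlap. A thinned count is a noisy measure of a cell's S100A9. Here and below, cells of the same group may therefore differ in true S100A9 level between samples, which was not tested.

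S100A7 did not follow S100A9 in the same way in every sample. At 11 to 20 S100A9 UMIs, S100A7 was found in 30.0% (26.1% to 34.1%) of HA control cells, against 53.3% (43.3% to 63.1%) in HA FOSL1. VPR control cells had it in 58.9% (54.7% to 63.0%), gRNA2 cells in 65.0% (54.8% to 74.3%) and gRNA3 cells in 63.1% (56.0% to 69.7%). The HA control stood below all the others, and the intervals do not overlap. It did so at 6 to 10 UMIs as well, with 10.9% (8.70% to 13.4%) against 21.4% to 30.95% in the other samples. Over whole samples, S100A7 came to 7.19 UMIs per 100 of S100A9 in the HA control (7.00 to 7.37), and to 12.95 in HA FOSL1, 15.8 in the VPR control, 11.5 for gRNA2 and 12.2 for gRNA3. Thus the small S100A7 ratio of the HA arm went with a control in which S100A7 was low for its S100A9.

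**Figure D4:**
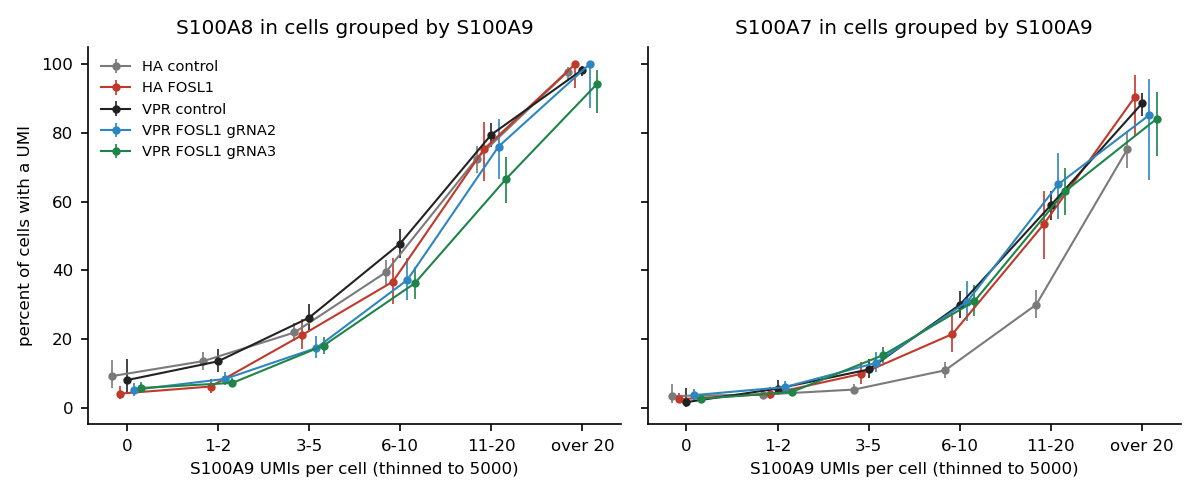
Percent of cells with a UMI of S100A8 (left) and S100A7 (right), by the number of S100A9 UMIs in the same cell (horizontal axis), for cells thinned to 5000 UMIs, with exact 95% binomial intervals. S100A8 ranges from 66.5% to 79.5% over the samples at 11 to 20 UMIs, where S100A7 is at 30.0% in the HA control against 53.3% to 65.0% in the rest.

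Within the FOSL1 samples, cells with FOSL1 UMIs had less calprotectin RNA. In HA FOSL1, S100A9 was at 890.4 CPM (869 to 912) in the 1447 thinned cells with 0 FOSL1 UMIs, 317 CPM (289 to 348) in the 281 cells with 1 and 258 CPM (213 to 309) in the 90 cells with more. S100A8 was at 141 CPM (133 to 150.3), 20.6 CPM (13.8 to 29.6) and 11.1 CPM (3.61 to 25.9), and S100A7 at 116 CPM (108 to 124), 29.2 CPM (20.9 to 39.6) and 22.2 CPM (10.7 to 40.9). All 3 genes were several-fold lower in the FOSL1-positive cells of this sample, including S100A7, whose sample mean was close to its control.

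With the guides the gradient was shallower. With gRNA2, S100A9 was at 646 CPM (629 to 663), 522 CPM (496 to 549.9) and 393 CPM (359 to 429) in cells with 0, 1 and more FOSL1 UMIs, and with gRNA3 at 712 CPM (699 to 726), 538 CPM (517 to 559.7) and 499 CPM (466 to 534). S100A8 was at 75.01, 49.9 and 23.9 CPM with gRNA2 and 78.9, 42.7 and 39.5 CPM with gRNA3. S100A7 showed no such order, with 68.8 CPM (63.4 to 74.5), 77.4 CPM (67.4 to 88.5) and 59.0 CPM (46.3 to 74.0) with gRNA2 and 76.9, 63.6 and 90.4 CPM with gRNA3. Guide cells without a FOSL1 UMI were thus also far below the VPR control, whose cells without FOSL1 stood at 2099 CPM of S100A9 and 375 CPM of S100A8. A cell with 0 UMIs at this depth may still express FOSL1. Free RNA at 5% or 10% of a cell's UMIs would alone give at least 1 FOSL1 UMI to 1.57% or 3.12% of cells. Exactly 1 UMI was seen in 15.5% of HA FOSL1 cells, 21.8% for gRNA2 and 21.1% for gRNA3, but in only 3.33% of the HA control and 4.06% of the VPR control. A further 0.238% of HA control cells and 0.193% of VPR control cells had 2 or more, which the expected values include. The control shares lie above both expected values but nearer to them than the FOSL1 samples do. At the limit of 14.1% given above for the controls, free RNA would by construction equal all of their FOSL1. No expected share was computed at that limit. Whether the control cells with a FOSL1 UMI express the gene was not tested. In these cells S100A9 was at 1229 CPM (1138 to 1324) in HA (112 cells) and 1400 CPM (1301 to 1505) in VPR (105 cells), against 1591 and 2099 CPM in control cells with 0.

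**Figure D5:**
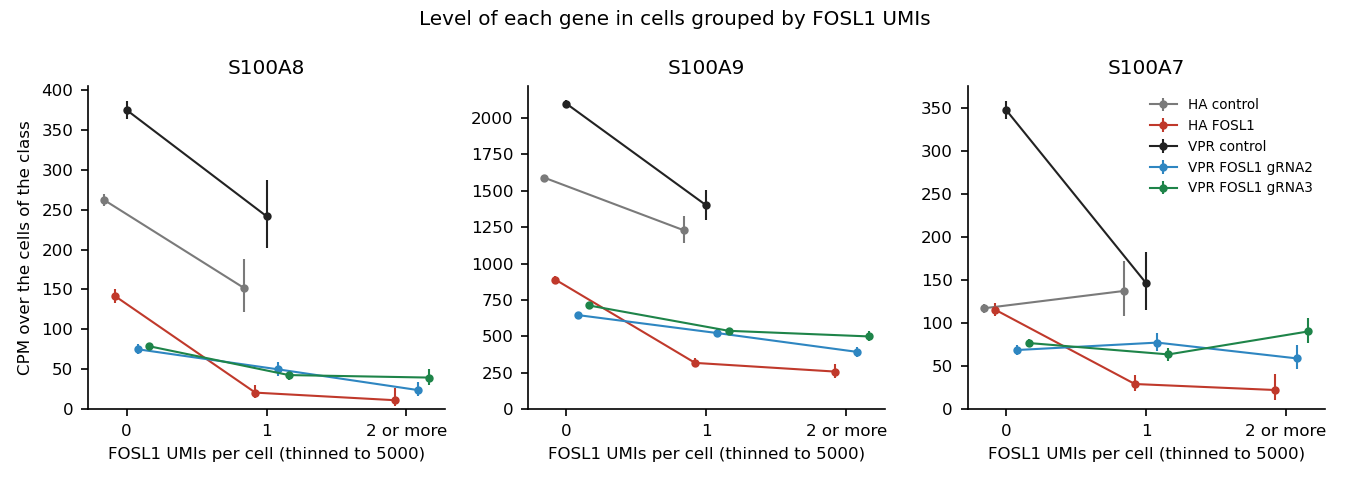
Level of each gene (vertical axes from 0, CPM over the cells of a class) in cells with 0, 1 and 2 or more FOSL1 UMIs (horizontal axis) after thinning to 5000 UMIs, with exact 95% Poisson intervals. Classes under 20 cells, the controls with 2 or more, are not drawn. HA FOSL1 goes from 890.4 to 317 and 258 CPM of S100A9, the steepest line of the 3 FOSL1 samples.

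Depth moved with these classes, and FOSL1-positive cells were deeper before thinning (median 20231, 23077 and 27117.5 UMIs for 0, 1 and more in HA FOSL1). Their median mitochondrial share was lower, with 9.96%, 9.31% and 8.46% in HA FOSL1, 10.7%, 10.4% and 9.92% for gRNA2 and 10.7%, 10.3% and 9.47% for gRNA3. Across the cells of a sample that share had a Spearman correlation of 0.07 to 0.22 with S100A9, and its part in these differences was not tested. S100A9 was lower in deeper cells, at 1051, 731 and 540.2 CPM from the shallowest to the deepest of 3 near-equal groups of HA FOSL1 cells. Within each of these groups the difference remained. S100A9 was at 1174 CPM without and 344 CPM with FOSL1 UMIs in the shallowest group, 829.7 and 258 in the middle and 609.8 and 314 in the deepest. S100A7 was at 178, 85.0 and 74.0 CPM without FOSL1 UMIs and 23.1, 10.5 and 40.2 CPM with them. With both guides S100A9 was likewise lower with FOSL1 UMIs in each of the 3 depth groups. The HA control had an exception, its shallowest group, where the 17 cells with FOSL1 UMIs held 2435 CPM of S100A9 (2115 to 2791) against 1680.3 CPM (1646 to 1715) in the rest.

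Genes of the same pathways were read from lists. Receptors and binding partners of these proteins showed few differences. Of 14, only 5 reached a mean of 20 CPM, and 1 of those was at least 1.5-fold from its control in any arm. This was ALCAM, an adhesion molecule that binds calprotectin, at 34.8 CPM in the HA control, 74.8 in HA FOSL1, 28.8 in the VPR control, 27.9 for gRNA2 and 25.2 for gRNA3 (log2 1.08 in the HA arm). At that fold or more, in either direction, lay 8.16% of all genes compared in HA, 1.51% for gRNA2 and 1.79% for gRNA3. The receptor gene BSG, named like CEBPB and STAT3 below after its values were seen, lay between 187 and 198 CPM in all 5 samples. Of 25 cytokine receptors, signalling proteins and transcription factors known to act on S100 genes, 11 reached 20 CPM and 0 were 1.5-fold from their control in any arm. The list's median was 0.09, -0.10 and -0.11 in the HA arm, for gRNA2 and for gRNA3, beside 0.00, 0.01 and 0.00 over all genes. CEBPB, a transcription factor of myeloid and epithelial inflammation, was between 274 and 314 CPM. STAT3, which relays cytokine signals, was between 132 and 152 CPM. Other regulators, also named after their values were seen, differed more. NFKBIZ was lower in all 3 arms, by -0.34 (HA), -0.40 (gRNA2) and -0.43 (gRNA3). IRF1 was higher in HA FOSL1 (0.48) but lower for the guides (-0.33 and -0.41). Under 20 CPM, CEBPA was lower (-0.84, -0.46 and -0.51) and KLF4 higher (0.88, 0.52 and 0.44), in the same order of arms. TP63, also under 20 CPM, was at -1.53 in HA but 0.37 and 0.64 for the guides.

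Some other S100 genes were higher in the FOSL1 samples. Of 18, 9 reached 20 CPM, and in each arm 4 were higher by 1.5-fold or more and 0 lower. In either direction, 8.16%, 1.51% and 1.79% of all genes compared lay at that fold in HA, gRNA2 and gRNA3. The medians of the list were 0.49, 0.46 and 0.42, beside 0.00, 0.01 and 0.00 over all genes. S100A4, linked to motility and invasion, was at 271 CPM in the HA control and 956 in HA FOSL1, and at 346, 715 and 818 CPM in the VPR control, gRNA2 and gRNA3. S100A6 stood at 2547 and 5320.0 CPM in HA, and at 3014, 4676 and 4680.4 CPM in VPR. S100A3 was higher by 1.76, 1.01 and 1.02 in the 3 arms, and S100A2 by 1.35 and 1.49 with the guides but -0.04 in the HA arm. The controls also differed in S100A2, with 171 CPM in the VPR control against 273 in the HA control (log2 -0.67). It was at 437 CPM with gRNA2 and 482 with gRNA3, so its guide ratios would be smaller against the HA control. The fourth gene past 1.5-fold in the HA arm was S100A10, a partner of annexin A2, named after its value was seen (0.97, against 0.46 and 0.42 with the guides). S100A12, the remaining calgranulin gene, which lies between S100A9 and S100A8, had 9 to 25 UMIs a sample. S100A14, named after its values were seen, lay between 344 and 367 CPM in all 5 samples. The near copy S100A7A, under 20 CPM, was lower by -1.19 and -1.12 with the guides. Of 30 genes of the epidermal differentiation complex outside the S100 family only TCHH, a structural protein of the hair follicle, reached 20 CPM, and it was higher by 1.00, 0.45 and 0.36.

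Antimicrobial and alarmin genes of epithelia went both ways. Of 20, 6 reached 20 CPM in the HA arm and 5 with either guide. In the HA arm 3 were at least 1.5-fold lower (PI3, SLPI and DEFB1) and 1 higher (the cytokine gene IL18, at 74.7 against 45.3 CPM, named after its value was seen), and with each guide 2 were lower and 0 higher. Those lower in all 3 arms were PI3, the protease inhibitor elafin, and SLPI, a related inhibitor. PI3 stood at 359 and 148 CPM in HA and at 271, 114 and 99.3 CPM in VPR. SLPI stood at 595 and 276 CPM in HA, and at 539, 289 and 287 CPM in VPR. The list's median was -0.64, -0.44 and -0.49, beside 0.00, 0.01 and 0.00 over all genes. Of all genes compared, 8.16%, 1.51% and 1.79% were at least 1.5-fold from their control in either direction. The defensin gene DEFB1, under a mean of 20 CPM over the 5 samples and named after its values were seen, was at 37.7 and 10.5 CPM in HA and at 23.4, 8.26 and 7.91 CPM in VPR. LCN2, which binds iron carriers of bacteria and was also named afterwards, was higher in HA FOSL1 (229 against 196 CPM) and lower with the guides (125 and 120.4 against 169.7 CPM).

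Genes most like the members over the 5 samples were sought among 178 genes that reached a mean of 20 CPM and spanned at least 1 log2 unit. With so few samples, Pearson r of log2(CPM + 1) is a measure of likeness only. S100A8 and S100A9 were closest to each other (r 0.99 over 5 samples). Both were followed by CYP4X1, a cytochrome P450 (0.98 with S100A8 and 0.97 with S100A9), and CLU, a secreted chaperone (0.95 and 0.97). CLU stood at 69.4 and 35.0 CPM in the HA control and HA FOSL1, and at 74.7, 36.4 and 30.1 CPM in the VPR control, gRNA2 and gRNA3. PI3 (0.93) and SLPI (0.92) came next for S100A8, and SLPI (0.95) and SAT1, a polyamine-degrading enzyme (0.92), for S100A9. For S100A7 the nearest were S100A9 and S100A8 (0.88 each), CYP4X1 (0.88), CLU (0.79) and the aldehyde dehydrogenase ALDH3B2 (0.78).

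Across cells of the controls, 5302 genes seen in at least 10% of thinned cells were compared. After the other members, S100A9 correlated highest with SLPI (mean Spearman 0.37 over the 2 controls), RARRES1 (0.34) and RARRES3 (0.30), the last 2 being genes named for their response to retinoids. For S100A8 the same 3 followed (0.29, 0.28 and 0.25), and for S100A7 SLPI (0.23), FXYD3 (0.21), an ion pump regulator, and RARRES1 (0.20). In HA FOSL1 cells S100A9 correlated with RARRES1 at 0.49 and with RARRES3 at 0.46. Named after their values were seen, the caveolar coat gene CAV1 and IGFBP5 had the most negative mean values with S100A9 in the controls (-0.33 and -0.34). CAV1, at 284 CPM in the HA control and 1384 CPM in HA FOSL1, had a negative correlation in all 5 samples, down to -0.52 in HA FOSL1, whereas IGFBP5 was at 0.21 there and at 0.05 with each guide. RARRES1 itself was not lower in HA FOSL1 (747 CPM against 602), but it was lower with gRNA2 (573 CPM) and gRNA3 (652) than in the VPR control (704). SLPI and RARRES3 were lower in all 3 arms. Thus a gene that went with S100A9 between cells did not always go with it between samples.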

How the data were processed

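UMI counts, as deposited, are whole numbers for each gene in each barcode, made by the authors with Cell Ranger version 4 per the file headers, on hg38 per the submitters' processing notes. The deposited assignment table gives each of 21228 called cells a hashtag with its probability as a fraction. No source used here names the tool. Hashtags with the prefix GOF were taken as the HA samples by elimination. Multiplets (24.4%), unassigned cells and blanks were left out. Cells with at least 1500 genes and at most 20% mitochondrial UMIs were kept (14642 cells, 94.5% to 95.8% of a sample's assigned cells), and doublets within a sample were not called. All cells come from 1 library, so no barcode is shared between libraries.

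Counts were summed per sample, as cells are not replicates. With 1 sample a group and members chosen from these values, no test was run. Levels have exact Poisson intervals, shares exact binomial (Clopper-Pearson) intervals, and log2 ratios of CPM + 1 exact conditional binomial intervals. On simulated counts for gRNA2 against the VPR control, 94.7% of the intervals of 5546 unchanged genes held the true value. The draws were Poisson and independent, so this checked the formula and not the effect of UMIs that clump in single cells. Without the top cell of each sample, the S100A7 ratio of the HA arm was -0.49, outside its interval of -0.32 to -0.21. Thinning to 5000 UMIs left out 5 to 13 cells a sample. The profile of free RNA came from 48909 barcodes holding 10 to 100 UMIs. The limit on free RNA used genes with at least 100 UMIs there.

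Python 3.11.15, numpy 2.4.6 and scipy 1.17.1 were used. The members and lists were chosen with earlier results of these data known. Named were the members and FOSL1, up to 5 genes a list at a mean of at least 20 CPM and 2-fold from their control in an arm, and the 5 genes most like each member by 2 measures. Genes named outside this rule are marked as named after their values were seen. Luminal receptor genes (ESR1, PGR, ERBB2) summed to between 12.3 and 15.4 CPM, with PGR at 0.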

Additional observations from a re-analysis of the deposited data

How the results depend on the processing

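Over 12 alternatives (11 for the comparison of the controls) no log2 ratio of a single gene changed direction (141 of 141 values). However, S100A7 in the HA arm did so between groups of cells matched on depth, as given above. Joint shares were computed in cells thinned to 5000 UMIs, at 1 or more and at 2 or more UMIs of each gene. They were also computed at 10000 UMIs, at 1 or more. With the main setting included, the joint share of each pair and of all 3 genes lay above the independent share in 60 of 60 values (1.01 to 13.3 times). The median log2 ratio of the 3 genes was -1.12 for HA FOSL1, -2.24 for gRNA2, -2.001 for gRNA3 and 0.50 for VPR control over HA control. With 5% free RNA subtracted the 3 arms were at -1.19, -2.40 and -2.12. A pseudocount of 10 CPM gave -2.10 with gRNA2 and -1.89 with gRNA3, and omitting the deepest 10% of cells gave -2.33 and -2.21. The mean over cells gave -1.03 in the HA arm and -2.11 with gRNA3, and median-of-ratios size factors gave -1.06 in the HA arm. The following were chosen after seeing the data. With 10% free RNA subtracted the arms were at -1.27, -2.58 and -2.27 and the controls at 0.54. Without the 1% of cells with the highest level they were at -1.21, -2.63 and -2.43, and the controls at 0.63. Without the top cell the arms were at -1.16, -2.34 and -2.07, and against the control of the other system at -1.73, -1.42 and -1.26. The cause of these shifts was not tested. Genes 2-fold from their control in either direction numbered 170 for HA FOSL1, 28 for gRNA2, 35 for gRNA3 and 2 for the controls. With the minimum lowered to 5 CPM they numbered 357, 61, 71 and 3, and at 1.5-fold 469, 87, 103 and 15. No paired analysis was possible because each group has 1 sample, and for the same reason no replicate could be left out.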
